A study of Mus musculus with 9 samples.

Results

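The 10 genes described here were taken as a set of markers used to recognise progenitors of the periosteum and fibroblasts. The choice was made with earlier results of these data known, so the counts below describe this set only. The genes were found by their symbol in the deposited expression table, and all 10 of 10 were present among 21958 genes. All 10 also passed the filter on low counts that left 13013 genes for testing. The set mixes kinds of protein. Ly6a encodes SCA1 and Thy1 encodes CD90, both small cell surface proteins held by a lipid anchor. Pdgfra and Pdgfrb encode the receptors for platelet-derived growth factors (PDGF). Cd34 encodes a sialomucin, Cd200 an immunoglobulin-type ligand that restrains myeloid cells, Eng the TGF-beta and BMP co-receptor endoglin, and Pi16 a peptidase inhibitor of the CAP family. Prrx1 and Prrx2 encode paired-related homeodomain transcription factors, which act in the nucleus, so "surface marker" does not describe those 2 genes. By the deposited annotation (GRCm39) the genes lie on 8 chromosomes. The anchored proteins are encoded by Ly6a at chr15:74866726-74869880 (minus strand) and Thy1 at chr9:43954681-43959876 (plus strand). The receptors are encoded by Pdgfra at chr5:75312953-75358876 (plus strand) and Pdgfrb at chr18:61178222-61218133 (plus strand). The homeodomain genes are Prrx1 at chr1:163072688-163141279 (minus strand) and Prrx2 at chr2:30724984-30771263 (plus strand). The others are Pi16 at chr17:29536654-29549567 (plus strand), Cd34 at chr1:194621127-194643587 (plus strand), Cd200 at chr16:45202498-45229416 (minus strand) and Eng at chr2:32536607-32572681 (plus strand).

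The RNA came from cultured progenitor cells of the mandibular periosteum of the mouse, the sheet of connective tissue around the jaw bone. The mutant cells carried a Cre recombinase driven by the Ctsk promoter (CTSK-iCre) on Plagl1 fl/fl and were measured after 3 days of osteogenic induction. That promoter is active in periosteal progenitors and also in osteoclasts, so deletion is limited to cells that use or have used it and to their progeny. The control cells were Plagl1 fl/fl without Cre and were measured after the same 3 days of induction, or at day 0 without it. The inducing medium held dexamethasone, a synthetic glucocorticoid, at 100 nM, ascorbic acid at 50 ug/ml and b-glycerophosphate at 5 mM, and the day 0 cells received none of them. All 9 libraries, 3 in each of 3 groups, thus share the floxed allele. Plagl1 encodes a zinc-finger transcription factor. The labels give no age or sex and do not say whether the 3 libraries of a group are separate animals or cultures, so the p-values rest on library-to-library spread alone, and that may be technical. Day 3 control cells also spent longer in culture than day 0 cells, so time and medium cannot be told apart.

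The periosteum holds progenitors that form bone and cartilage. SCA1, CD90, PDGFRα, CD105 (endoglin) and CD200 are used to sort such cells, by the presence or by the absence of the protein. In mesenchyme generally, PDGFRα and PDGFRβ mark fibroblast and mural states, while Pi16 with Cd34 and Ly6a marks a fibroblast state found around vessels in many tissues. Prrx1 is active in limb and craniofacial mesenchyme, and in the mouse Prrx1 and Prrx2 act together in shaping the jaw. None of these genes is specific to 1 cell type, since Ly6a is made by haematopoietic cells, Thy1 by T cells and neurons, and Cd34 and Eng by endothelium.

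The libraries held 16204327 to 19859744 counted reads. Plagl1 was at 26.3, 24.2 and 24.8 CPM (counts relative to the library total, scaled by the TMM method) in the mutant, against 43.9, 44.9 and 45.9 CPM in day 3 controls and 35.5, 38.4 and 35.9 CPM at day 0. It was lower in the mutant than in day 3 controls but still read (0.559 times, edgeR quasi-likelihood test, adjusted p = 7.6e-09). The 4 listed genes of the Y chromosome, Ddx3y, Uty, Kdm5d and Eif2s3y, were also lower in the mutant (0.323 to 0.402 times), with a summed level of 91.6 to 108 CPM, against 260.5 to 282 CPM in day 3 controls. That difference runs fully along the genotypes, so genotype and the sex make-up of the cultures cannot be told apart in any mutant value below. Macrophage genes were abundant in all groups. The 13 of them in the list summed to 21710 to 23850 CPM in the mutant, 20670 to 22680 CPM in day 3 controls and 14540 to 14960 CPM at day 0. In such bulk RNA, more cells of a type and more RNA per cell cannot be told apart.

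Set against each other per kilobase, the 10 genes spanned a wide range. On the FPKM scale (reads scaled by gene length and library total), Ly6a was first in every group, at 1426 ± 66.3 FPKM in the mutant, 1000 ± 102 FPKM in day 3 controls and 69.8 ± 2.89 FPKM at day 0 (SD, n = 3 each). Pi16 was last in every group, at 1.44 ± 0.0846 FPKM in the mutant, 0.319 ± 0.057 FPKM in day 3 controls and 0.0436 ± 0.0469 FPKM at day 0. Ly6a exceeded 99.9% of the 13013 tested genes in the mutant, while Pi16 exceeded 23.4%. At day 0 the order after Ly6a was Pdgfrb, Thy1, Prrx1, Eng, Prrx2, Pdgfra, Cd200, Cd34 and Pi16, and no neighbours in that order overlapped over their libraries. In day 3 controls the order was Ly6a, Prrx1, Pdgfra, Thy1, Pdgfrb, Eng, Prrx2, Cd34, Cd200 and Pi16, where Prrx1 with Pdgfra and Eng with Prrx2 overlapped. In the mutant Thy1 stood second at 58.3 ± 4.55 FPKM, ahead of Pdgfra at 46.6 ± 3.74 and Prrx1 at 42.6 ± 2.06 FPKM, and Pdgfra with Prrx1, Prrx2 with Cd34 and Cd200 with Pi16 overlapped. Together the 10 genes took 0.305% to 0.327% of the reads of mutant libraries, 0.268% to 0.29% in day 3 controls and 0.118% to 0.122% at day 0.

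**Figure D1:**
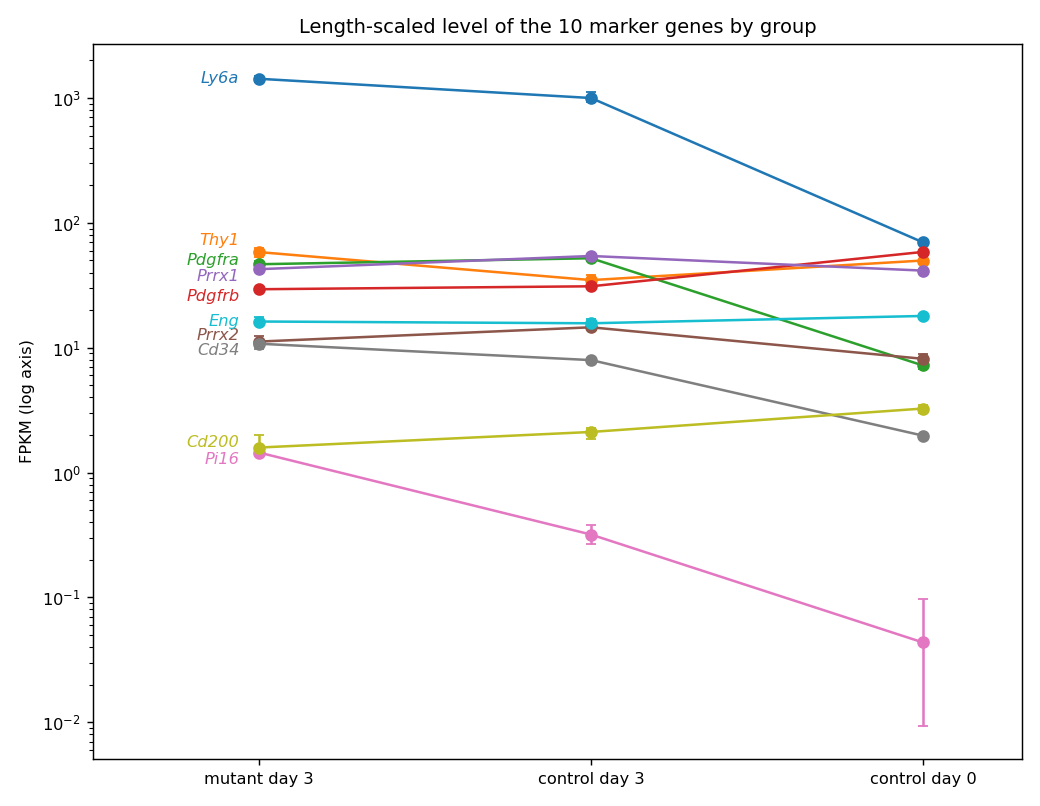
FPKM (log axis) of each of the 10 genes in mutant day 3, control day 3 and control day 0 cells; points are means of 3 libraries, bars run from the lowest to the highest library and lines only join the points of 1 gene. Ly6a is first and Pi16 last in every group, and Pdgfra lies below Pdgfrb at day 0 and above it in both day 3 groups.

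Promoters are shown for 4 of the genes that differed in the mutant, a pair that was higher (Pi16 and Cd34) and a pair of related genes that was lower (Prrx1 and Prrx2). The RefSeq table (build GRCm38.p6) held 1 start for each of 7 members, Pdgfra, Prrx1, Prrx2, Pi16, Cd34, Cd200 and Eng. Ly6a, Thy1 and Pdgfrb are named only. Each window runs from 250 bases before to 50 bases after the start, 5′ to 3′ on the strand of the gene, and capitals mark matches to the motifs listed below. The windows are chr17:29318632-29318931 (plus strand) for Pi16, chr1:194938571-194938870 (plus strand) for Cd34, chr1:163313601-163313900 (minus strand) for Prrx1 and chr2:30845117-30845416 (plus strand) for Prrx2.
Pi16: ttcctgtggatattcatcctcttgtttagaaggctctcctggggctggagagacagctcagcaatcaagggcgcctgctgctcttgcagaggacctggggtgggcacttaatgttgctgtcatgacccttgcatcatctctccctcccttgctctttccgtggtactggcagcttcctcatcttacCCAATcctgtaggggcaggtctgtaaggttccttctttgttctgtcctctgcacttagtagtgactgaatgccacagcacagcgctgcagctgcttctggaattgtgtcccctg
Cd34: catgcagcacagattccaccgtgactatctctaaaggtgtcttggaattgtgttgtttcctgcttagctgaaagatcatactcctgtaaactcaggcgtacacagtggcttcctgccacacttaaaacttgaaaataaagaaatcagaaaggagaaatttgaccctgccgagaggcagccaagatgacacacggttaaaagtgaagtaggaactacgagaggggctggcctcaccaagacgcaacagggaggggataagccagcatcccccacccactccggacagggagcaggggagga
Prrx1: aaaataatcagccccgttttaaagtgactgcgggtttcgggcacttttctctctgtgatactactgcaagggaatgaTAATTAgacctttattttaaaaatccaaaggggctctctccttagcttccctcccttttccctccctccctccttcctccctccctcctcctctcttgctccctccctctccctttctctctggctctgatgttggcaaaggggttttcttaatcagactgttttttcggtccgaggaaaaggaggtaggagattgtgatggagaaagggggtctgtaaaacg
Prrx2: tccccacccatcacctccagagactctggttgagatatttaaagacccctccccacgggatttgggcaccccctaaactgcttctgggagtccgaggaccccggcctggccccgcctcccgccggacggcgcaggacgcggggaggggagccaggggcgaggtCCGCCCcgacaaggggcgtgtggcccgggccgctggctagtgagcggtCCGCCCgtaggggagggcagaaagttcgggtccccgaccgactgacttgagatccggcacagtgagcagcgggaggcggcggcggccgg

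Both strands were searched for 9 motifs. They were a glucocorticoid response element (in 0.476% of 32544 promoters of the same length), an interferon-stimulated response element (3.45%), a STAT site (TTCNNNGAA, 8.33%), the Plagl1 core GGGGCCCC (1.07%), a GC box (GGGCGG, 35.9%), a TATA box (TATAAA, 13.6%), a CCAAT box (CCAAT, 37.4%), a homeodomain core (TAATTA, 5.29%) and an AP-1 site (TGANTCA, 7.79%). Counting from 1 at the 5′ end of the window, Pi16 held a CCAAT box at 187, Prrx1 a homeodomain core at 78 and Prrx2 held 2 GC boxes, both marked above. Cd200 held 1 GC box, and Cd34, Pdgfra and Eng held none of the 9. The Prrx2 window had 28 CpG pairs, more than 85.7% of promoters, while the other 6 had 3 (Pi16) to 8 (Cd200), around the median of 7. The related pair Prrx1 and Prrx2 thus had unlike start regions, with a G and C content of 47.7% and 70.3%. These matches describe letters in 1 window per gene and are not measured binding.

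The first comparison set control cells after 3 days of induction against control cells at day 0. Of the members 6 were higher and 3 lower, so 9 of 10 were called at an adjusted p below 0.05, against a background of 65.5% of all genes tested (33.1% higher, 32.4% lower). The share of genes called is so high that the sizes say more than the count. Ly6a, Pdgfra, Pi16 and Cd34 rose at least 2-fold, which 10.8% of all genes did, and no member fell 2-fold, which 7.38% did. The libraries of the 2 groups did not overlap for 9 members, as for 70.8% of all genes. The median log2 fold change of the 10 was 0.73, beside 0.0085 over all genes tested.

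Among the surface proteins with a lipid anchor, Ly6a had 1180, 1146 and 1378 CPM in day 3 controls, against 78.7, 76.4 and 82.4 CPM at day 0. Every induced library was far above every day 0 library, by 15.6-fold (log2 fold change 3.96 ± 0.07 SE, adjusted p = 9.12e-22). It ranked 186th from the top among 13013 genes. Thy1, by contrast, had 118.5, 102 and 99.9 CPM in day 3 controls, against 143, 136 and 143 CPM at day 0. It fell to 0.759 times, in all 3 libraries (−0.40 ± 0.07, adjusted p = 2.42e-05). The 2 anchored markers that are often read together on progenitors hence moved in opposite directions on induction.

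The PDGF receptors exchanged places. Pdgfra had 511, 547 and 545 CPM in day 3 controls, against 69.2, 70.9 and 64.0 CPM at day 0, a 7.86-fold rise (2.97 ± 0.06, adjusted p = 2.72e-20). Pdgfrb had 179, 174 and 170 CPM in day 3 controls, against 301, 316 and 288 CPM at day 0, and fell to 0.577 times (−0.79 ± 0.05, adjusted p = 7.14e-12). Within 1 library, the ratio of their counts per kilobase was 1.57, 1.71 and 1.76 in day 3 controls, against 0.125, 0.123 and 0.122 at day 0. The α receptor was therefore the less abundant of the pair in every day 0 library and the more abundant in every induced one. The log2 ratio differed by 3.77 (0.75 ± 0.09 in day 3 controls and −3.02 ± 0.02 at day 0, SD, n = 3 each, two-sided exact permutation p = 0.1, the smallest that 3 against 3 can give).

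**Figure D2:**
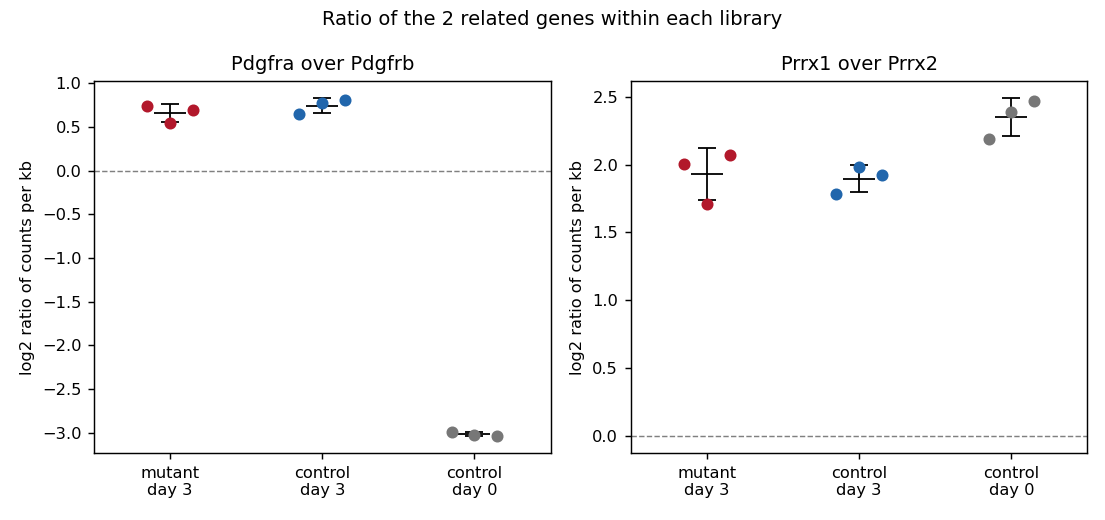
Log2 ratio of counts per kilobase of Pdgfra over Pdgfrb (left) and Prrx1 over Prrx2 (right) in each library; points are libraries, black marks are means ± SD over 3 libraries, and the dashed line is an equal level. The Pdgfra ratio is near −3.02 at day 0 and above 0 in all 6 induced libraries, and the Prrx1 ratio stays above 0 in all 9.

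The homeodomain pair rose together. Prrx1 had 599, 635 and 612 CPM in day 3 controls, against 423, 442 and 431 CPM at day 0 (1.43-fold, 0.51 ± 0.05, adjusted p = 8.68e-09). Prrx2 had 30.8, 28.4 and 28.6 CPM in day 3 controls, against 16.4, 14.9 and 13.8 CPM at day 0 (1.94-fold, 0.96 ± 0.09, adjusted p = 4.67e-09). For neither gene did the groups overlap. The log2 ratio of Prrx1 to Prrx2 was 1.90 ± 0.10 in day 3 controls and 2.35 ± 0.14 at day 0, a difference of −0.45 (two-sided exact permutation p = 0.1, the smallest possible). Prrx1 was the more abundant per kilobase in all 9 libraries.

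Of the other surface genes, Cd34 had 57.7, 59.8 and 60.7 CPM in day 3 controls, against 13.8, 13.7 and 13.2 CPM at day 0 (4.38-fold, 2.13 ± 0.08, adjusted p = 1.95e-16). The groups lay far apart. Pi16 was nearly silent at day 0, with 3, 1 and 10 reads, against 37, 48 and 28 reads in day 3 controls. It rose 8.13-fold (3.02 ± 0.40, adjusted p = 7.29e-07), and the fold rests on day 0 replicate 3. Without that library the log2 fold change was 4.24. Cd200 was lower, with 6.32, 7.68 and 7.58 CPM in day 3 controls, against 9.39, 10.3 and 10.9 CPM at day 0 (0.708 times, −0.50 ± 0.14, adjusted p = 0.00311). Eng had 70.8, 59.6 and 64.7 CPM in day 3 controls, against 69.8, 71.4 and 64.2 CPM at day 0. Its groups overlapped, and the log2 difference was −0.07, with a 95% interval of −0.22 to 0.08 (adjusted p = 0.378).

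The endothelial list, which bears on Cd34 and Eng, summed to 20.45 to 23.3 CPM in day 3 controls, against 25.6 to 30.35 CPM at day 0. Of its 9 tested genes 1 was higher and 2 lower. Vwf, which encodes von Willebrand factor, carried the lower sum, at 0.522 CPM in day 3 controls and 8.65 CPM at day 0 (0.0608 times, adjusted p = 3.62e-12). The VEGF receptor gene Flt1 was at 14.1 CPM in day 3 controls and 13.1 CPM at day 0 (adjusted p = 0.445), and Kdr, another VEGF receptor gene named after its values were seen, was 1.46-fold higher (adjusted p = 0.0219). The part of such cells in the rise of Cd34 was not tested. The lymphoid list, which bears on Thy1, summed to 0.762 to 1.43 CPM in day 3 controls, against 4.28 to 4.85 CPM at day 0. Most of it was Cd4 (0.187 times, adjusted p = 3.06e-08), the only one of its 9 genes that could be tested, and Cd3e and Cd3g had no read in any library. Its part in the fall of Thy1 was not tested. The pericyte and smooth muscle list, which bears on Pdgfrb, summed to 800 to 907 CPM in day 3 controls, against 2724 to 2803 CPM at day 0, with 3 of 10 tested genes higher and 6 lower. Its most abundant genes Acta2 (0.279 times) and Myl9 (0.415 times) made up most of the sum and were both lower. The 3 that were higher, named after their values were seen, were the pericyte marker Rgs5 (14.1-fold), Notch3 (1.99-fold) and Des (2.12-fold). The part of such cells in the fall of Pdgfrb was not tested. The macrophage list rose in sum with Ly6a, with 10 of 13 genes higher and 3 lower. Higher were, among others, Lyz2, which encodes lysozyme (a log2 fold change of 0.59), and Adgre1, which encodes F4/80 (2.76-fold). Lyz2 made up most of the sum, at 12900 CPM in day 3 controls and 8600 CPM at day 0. The 3 that were lower, named after their values were seen, were Csf1r (0.676 times), Mrc1 (0.684 times) and Ptprc (0.848 times). The part of such cells in the rise of Ly6a was not tested. All 10 interferon-stimulated genes were also higher, among them Irf7 (24.0-fold) and Bst2 (4.74-fold), as were all 8 glucocorticoid targets, such as Fkbp5 (8.87-fold) and Tsc22d3 (11.2-fold). Their link to any member was not tested.

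**Figure D3:**
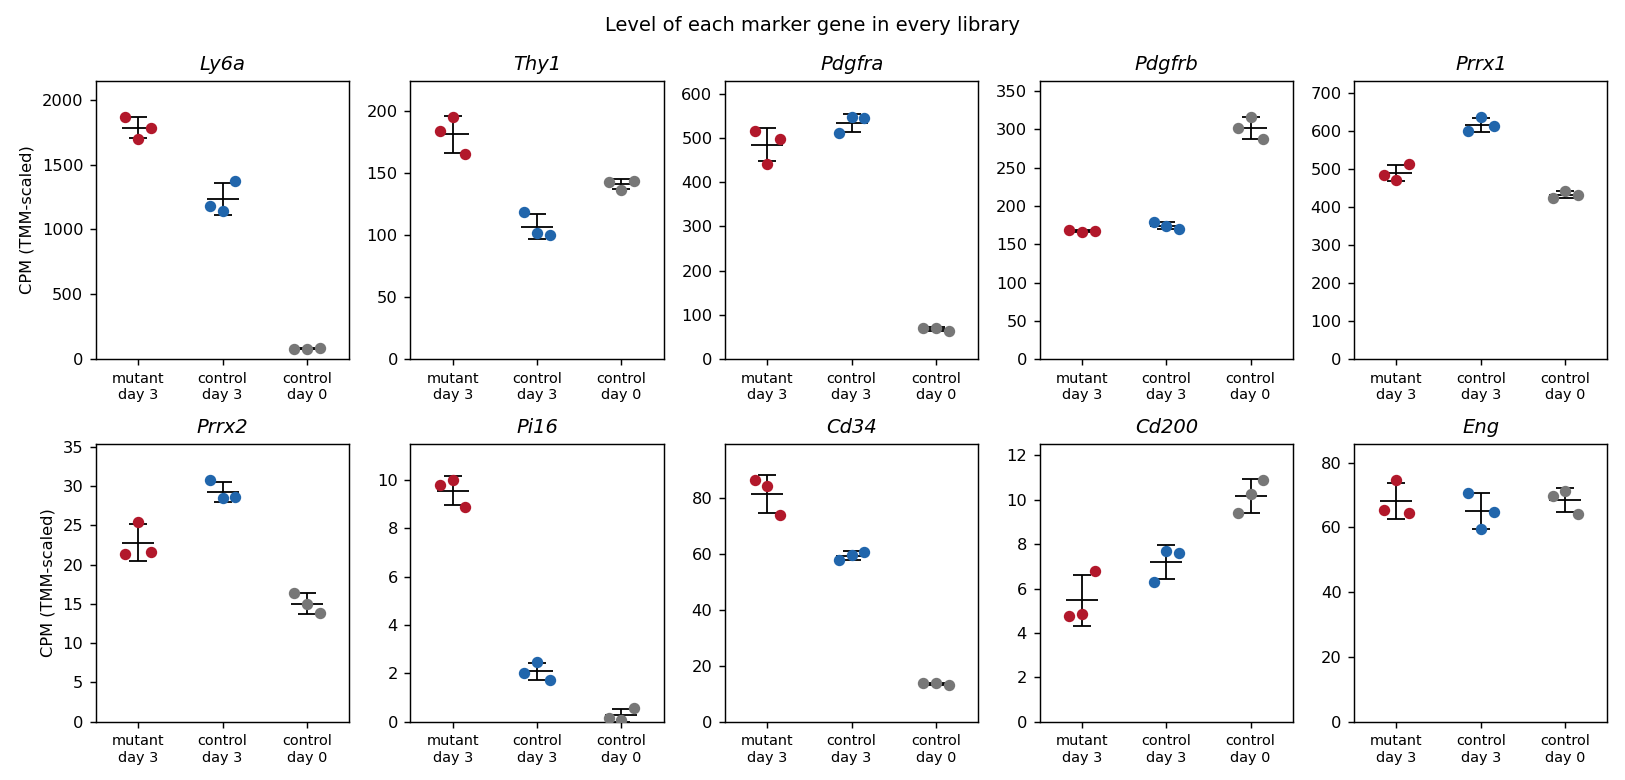
CPM of each of the 10 genes in every library, by group (mutant day 3, control day 3, control day 0); points are libraries and black marks are means ± SD over 3 libraries. Ly6a, Pdgfra, Pi16 and Cd34 are lower in every day 0 library than in every library of both induced groups. Thy1 in the mutant lies between 165 and 195 CPM, above all control libraries.

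The second comparison set induced mutant cells against induced control cells. Of the 10 genes 6 passed, 4 higher and 2 lower, against a background of 17.7% of all genes (7.95% higher and 9.74% lower). Ly6a, Thy1, Pi16 and Cd34 were higher, the homeodomain genes Prrx1 and Prrx2 were lower, and Pdgfra, Pdgfrb, Cd200 and Eng were not called. Only Pi16 was higher by at least 2-fold, as were 0.5% of all genes, and none was lower by that much, as were 1.71%. The libraries did not overlap for 7 members, against 33.4% of all genes, and the one of these without a call was Pdgfrb. The median log2 fold change over the 10 was 0.0045, beside 0.0014 over all genes. The control day 3 libraries serve in both comparisons, so a low or high value there moves the 2 results in opposite directions.

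Pi16 showed the largest change of the set. It had 9.78, 9.99 and 8.86 CPM in the mutant, against 2.015, 2.47 and 1.74 CPM in day 3 controls, from 165, 173 and 155 reads against 37, 48 and 28. The groups lay far apart, and the 4.55-fold difference (2.19 ± 0.21, adjusted p = 6.2e-08) was the 7th largest increase among 13013 genes. Ly6a had 1866, 1702 and 1785 CPM in the mutant, against 1180, 1146 and 1378 CPM in day 3 controls (1.45-fold, 0.53 ± 0.06, adjusted p = 1.34e-06). Every mutant library was above every induced control library. Cd34 had 86.5, 84.3 and 73.8 CPM in the mutant, against 57.7, 59.8 and 60.7 CPM in day 3 controls, and was higher in every library (1.37-fold, 0.46 ± 0.06, adjusted p = 2.15e-05).

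Thy1 differed from these 3 in its order over the groups. It had 184, 195 and 165 CPM in the mutant, against 118.5, 102 and 99.9 CPM in day 3 controls (1.70-fold, 0.76 ± 0.07, adjusted p = 2.39e-08). Against day 0 controls, too, the mutant was higher (1.29-fold, 0.37 ± 0.07, adjusted p = 4.94e-05), whereas induced control cells were lower than day 0 cells. Thy1 was thus the only member whose level in day 3 controls lay below both other groups in every library and differed from both by the test.

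**Figure D4:**
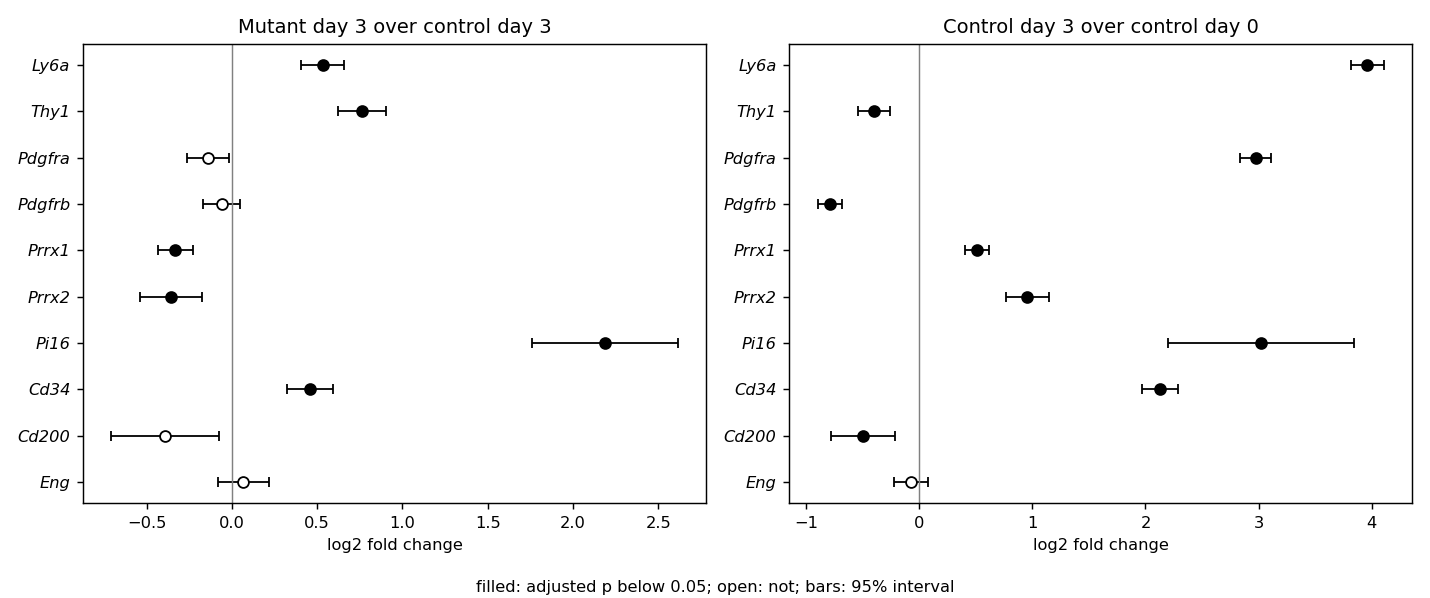
Log2 fold change of each gene in mutant day 3 over control day 3 cells (left) and control day 3 over control day 0 cells (right), with 95% intervals from the edgeR fit; filled points have an adjusted p below 0.05. The axes differ in range. Pi16 stands at 2.19 on the left, and Ly6a, Pi16, Pdgfra and Cd34 lie between 2.13 and 3.96 on the right.

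The 2 homeodomain genes were lower by like amounts. Prrx1 had 485, 470 and 513 CPM in the mutant, against 599, 635 and 612 CPM in day 3 controls (0.795 times, −0.33 ± 0.05, adjusted p = 5.18e-05). Prrx2 had 21.4, 25.5 and 21.6 CPM in the mutant, against 30.8, 28.4 and 28.6 CPM in day 3 controls (0.779 times, −0.36 ± 0.09, adjusted p = 0.00572). In both genes each mutant library was below each induced control library and above each day 0 library. The log2 ratio of the pair was 1.93 ± 0.19 in the mutant and 1.90 ± 0.10 in day 3 controls (SD, n = 3 each), and its difference of 0.03 was within the spread of libraries (two-sided exact permutation p = 0.7).

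Neither PDGF receptor passed in the mutant, where the pericyte and smooth muscle list summed to 551 to 639 CPM, against 800 to 907 CPM in day 3 controls (1 of 10 genes higher and 6 lower). Pdgfra had 515, 442 and 498.5 CPM in the mutant, against 511, 547 and 545 CPM in day 3 controls. The groups overlapped, and the log2 difference was −0.14, with a 95% interval of −0.26 to −0.02 before adjustment (adjusted p = 0.106). Pdgfrb had 169, 165 and 168 CPM in the mutant, against 179, 174 and 170 CPM in day 3 controls, a log2 difference of −0.06 (95% interval −0.17 to 0.05, adjusted p = 0.48). Their ratio per kilobase was 1.67, 1.46 and 1.62 in the mutant, against 1.57, 1.71 and 1.76 in day 3 controls (log2 difference −0.08, two-sided exact permutation p = 0.4). The α receptor was thus the more abundant in every mutant library, as in every induced control library.

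Cd200 had 4.74, 4.85 and 6.80 CPM in the mutant, against 6.32, 7.68 and 7.58 CPM in day 3 controls (−0.39 ± 0.15, adjusted p = 0.0777). Mutant replicate 3 stood apart from the other 2, and without it the gene was called (−0.58, adjusted p = 0.0093). Eng had 65.4, 74.7 and 64.4 CPM in the mutant, against 70.8, 59.6 and 64.7 CPM in day 3 controls (0.07, 95% interval −0.08 to 0.22, adjusted p = 0.57). Eng was the only member called in none of the 3 comparisons run.

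Beside the higher level of Cd34 in the mutant, the endothelial list gave 2 of 9 tested genes higher and 1 lower, with a median log2 fold change of 0.55. Its summed level was 17.55 to 20.7 CPM in the mutant, against 20.45 to 23.3 CPM in day 3 controls. Flt1, its most abundant gene, was at 7.98 CPM in the mutant and 14.1 CPM in day 3 controls (0.564 times, adjusted p = 0.000121), and Vwf was at 0.369 CPM in the mutant and 0.522 CPM in day 3 controls (adjusted p = 0.511). The genes that were higher, as Cd34 was, were Cdh5 (3.35-fold, adjusted p = 0.00109) and Emcn (2.95-fold, adjusted p = 0.00876), both at under 2 CPM in both groups. Pecam1 was at 2.11-fold (adjusted p = 0.0679) and Egfl7 at 2.76-fold (adjusted p = 0.0886) without a call. These 4 genes were named after their values were seen. Of the macrophage list 7 of 13 genes were higher and none lower, with a median log2 fold change of 0.17. Lyz2 was at 0.01 (adjusted p = 0.921) and Adgre1 was 1.13-fold higher (adjusted p = 0.03). Of the interferon-stimulated genes 1 of 10 was higher and none lower, and of the glucocorticoid targets 2 of 8 were higher and 2 lower. The part of any of these in the mutant values of Ly6a and Cd34 was not tested. Thy1 was higher in the mutant, while the only tested lymphoid gene, Cd4, was at 0.893 CPM there and 0.766 CPM in day 3 controls (adjusted p = 0.701).

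The third comparison, induced mutant against day 0 control cells, shares its libraries with the first 2. Mutant cells at day 0 were not measured, so this comparison mixes genotype, medium and time in culture. In it 9 of 10 members were called, 7 higher and 2 lower, against 68.3% of all genes (33.7% higher and 34.7% lower). At least 2-fold higher were 4 members (10.8% of all genes) and lower by that much none (9.53%), and the libraries did not overlap for 9 members (70.4%). Pi16 was 37.0-fold higher (5.21 ± 0.30, adjusted p = 9.79e-13), and without day 0 replicate 3 its log2 fold change was 6.43. Ly6a was 22.5-fold higher (4.49 ± 0.07) and Cd34 6.01-fold higher (2.59 ± 0.08), with Pdgfra at 7.14-fold (2.84 ± 0.06). Prrx1 was 1.13-fold and Prrx2 1.51-fold higher than in day 0 controls. Cd200 was at 0.539 times the day 0 level (−0.89 ± 0.14) and Pdgfrb at 0.554 times (−0.85 ± 0.05). The log2 fold change of Eng was −0.01 (95% interval −0.16 to 0.14).

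Genes that act with the members were read as ligands, receptors and relatives. Of 18 tested ligands and partners, 6 were higher and 10 lower in day 3 controls than at day 0, and in the mutant 3 were higher and 9 lower than in day 3 controls. The PDGF ligand genes, all 4 given here for their role, gave no call of higher in either comparison. Pdgfa, whose product binds the α receptor, was at 8.93 CPM in the mutant, 14.3 CPM in day 3 controls and 19.5 CPM at day 0, and was lower in both (0.625 times in the mutant, adjusted p = 0.000123, and 0.732 times on induction, adjusted p = 0.00046). Pdgfc was likewise lower in both (0.748 times in the mutant, adjusted p = 0.000106, and 0.716 times on induction, adjusted p = 8.21e-07). Pdgfb, a ligand of both receptors, fell on induction to 0.158 times, and in the mutant was at 0.613 times (adjusted p = 0.0557). Pdgfd was lower in the mutant (0.615 times, adjusted p = 0.000406) and at 1.14-fold on induction (adjusted p = 0.181). Of the 4 ligand genes, 3 were thus lower in the mutant, while neither receptor was called.

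Of the listed TGF-beta ligand genes, Tgfb3 was at 37.5 CPM in the mutant, 72.3 CPM in day 3 controls and 148 CPM at day 0. It was lower in both comparisons (0.519 times in the mutant and 0.488 times on induction). Tgfb2 was also lower in both (0.704 times in the mutant and 0.489 times on induction). Tgfb1, named after its values were seen, differed from them in the mutant, at 127 CPM against 108 CPM in day 3 controls (1.17-fold, adjusted p = 0.0254), and was lower on induction (0.830 times, adjusted p = 0.00168). The signalling receptor gene Acvrl1, which encodes ALK1, was higher in both (1.28-fold in the mutant and 2.05-fold on induction). Of the other TGF-beta and BMP receptor genes listed, Tgfbr1 was lower in both (0.799 times in the mutant and 0.421 times on induction). Tgfbr2 was lower in the mutant (0.869 times) and higher on induction (1.26-fold). Bmpr2 was lower in the mutant (0.858 times) and at 0.903 times on induction (adjusted p = 0.069). These receptor genes were named after their values were seen. The ligands of ALK1 encoded by Gdf2 and Bmp10 had at most 1 read in any group. Eng, the co-receptor gene, was called in neither comparison. Cd200r1, the receptor of CD200 on myeloid cells, also named after its values were seen, was at 111 CPM in the mutant, 94.8 CPM in day 3 controls and 69.6 CPM at day 0, and was higher in both (1.17-fold in the mutant and 1.36-fold on induction). The ligand and its receptor gene thus differed in direction on induction, where Cd200 fell.

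Relatives of the members did not all follow them. Of 14 tested, 9 were higher and 3 lower on induction, and 2 were higher and 4 lower in the mutant. The Ly6 genes lie in a cluster on chromosome 15 with Ly6a (GRCm39), Ly6i at 11.4 kb, Ly6e at 35 kb and Ly6c1 at 46 kb from it. All 3 were higher on induction, Ly6c1 by 31.8-fold, Ly6e by 5.52-fold and Ly6i by 316-fold, the last from 5 reads at day 0. In the mutant Ly6c1 was at 262 CPM, against 118 CPM in day 3 controls (2.23-fold, adjusted p = 5.23e-10), and Ly6e was higher by 0.32 on the log2 scale (adjusted p = 0.00629). Ly6i was at 0.16 on the log2 scale there (adjusted p = 0.235). The copies are alike in sequence and a read may match several of them, which leaves the values of single Ly6 genes uncertain.

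Alx4, a paired-type homeodomain gene like Prrx1, was 1.58-fold higher on induction and at 0.487 times in the mutant (725 reads in the mutant, against 1555 in day 3 controls, adjusted p = 6.42e-08). In both comparisons Alx4 thus moved in the same directions as Prrx1 and Prrx2, with a larger fold in the mutant. Against day 0 controls, however, Alx4 was lower in the mutant (0.771 times, adjusted p = 0.00265), where Prrx1 and Prrx2 were higher. The homeodomain relatives Shox2 and Alx1 were named after their values were seen. Shox2 was called neither on induction (adjusted p = 0.686) nor in the mutant (adjusted p = 0.791). Alx1 was lower in the mutant only (0.361 times, adjusted p = 0.0321, 16 reads there). Crispld2, a CAP-family relative of Pi16, rose 7.06-fold on induction, as Pi16 did, but was at 0.471 times in the mutant (89.3 CPM, against 190 CPM in day 3 controls, adjusted p = 1.96e-11), where Pi16 was higher. Tgfbr3, which encodes betaglycan, a relative of endoglin, rose 6.36-fold on induction and was at 1.05-fold in the mutant (adjusted p = 0.465).

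Other genes of the same cell states were counted from 2 lists. Of 19 tested fibroblast genes, 13 were higher and 4 lower on induction (median log2 fold change 1.05), and in the mutant 10 were higher and 4 lower (median 0.25). Dcn, which encodes decorin, was at 636 CPM in the mutant, 203 CPM in day 3 controls and 22.6 CPM at day 0, and Dpt, which encodes dermatopontin, was at 21.3 CPM in the mutant, 8.62 CPM in day 3 controls and 2.0 CPM at day 0. Gsn, the gelsolin gene, was 1.61-fold and Tnxb, which encodes tenascin X, 3.35-fold higher in the mutant, and both were higher on induction too (Gsn 3.68-fold and Tnxb 3.64-fold). The 4 that were lower in the mutant, named after their values were seen, were Lum, which encodes lumican (0.574 times), Col14a1 (0.609 times), Fap (0.634 times) and Fstl1 (0.882 times), and all 4 were higher on induction. Cd55 rose 76.3-fold and Il33 81.2-fold on induction, the last from 14 reads at day 0. Lower on induction were 4 fibroblast genes, named after their values were seen. These were Col15a1 (0.214 times), Sema3c (0.278 times), Anxa3 (0.557 times) and Fbn1 (0.850 times). Of 20 other skeletal progenitor genes, 9 were higher and 6 lower on induction (median 0.325), and in the mutant 1 was higher and 6 lower (median −0.21). Cxcl12, Postn and Vcam1 rose on induction by 7.67-fold, 3.25-fold and 5.46-fold, and Acta2 fell to 0.279 times. The other genes of this list that fell on induction were named after their values were seen. They were Mcam (0.125 times), Grem1 (0.175 times), Nes (0.222 times), Alcam (0.338 times) and Cd44 (0.564 times). Nt5e, which encodes CD73, was at 1.70 CPM in the mutant and 5.61 CPM in day 3 controls (0.304 times, adjusted p = 2.33e-06), and Sox9 was at 0.685 and Ctsk at 0.816 times. All 7 tested osteoblast genes were lower in the mutant, with Col1a1 at 0.591 and Col1a2 at 0.617 times.

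**Figure D5:**
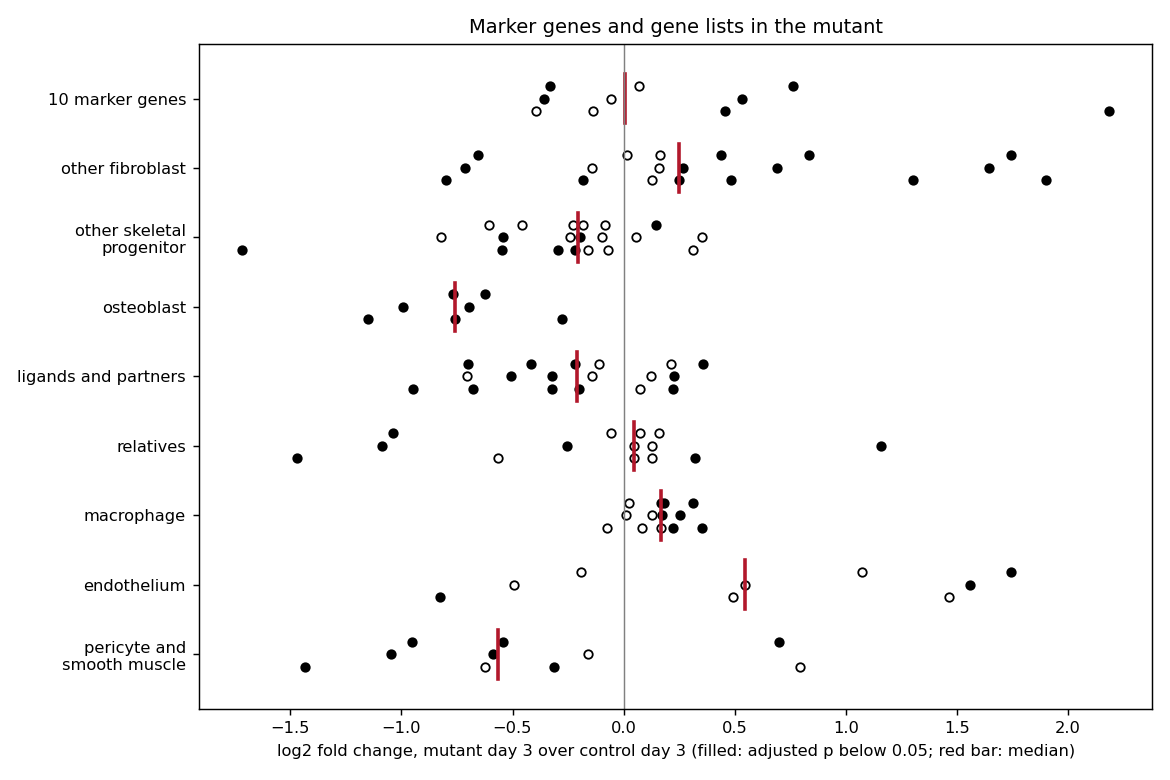
Log2 fold change of each tested gene in mutant day 3 over control day 3 cells, for the 10 markers and 8 gene lists; filled points have an adjusted p below 0.05 and red bars are list medians. The other fibroblast genes have a median of 0.25, the other skeletal progenitor genes −0.21 and the osteoblast genes −0.76.

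The genes nearest to each member in their course over the 9 libraries were taken from 10483 genes with at least 5 CPM, by the root mean square difference of centred log2 CPM. Pi16 had the 3 least close neighbours, Dcn (0.51), Agtr2 (0.53) and Chrdl1 (0.63), all with a positive log2 fold change in both comparisons. For Ly6a they were Gbp5 (0.11), Klf15 (0.16) and Tarm1 (0.17), and for Cd34 Dtx2, Gbp2 and H2-T22 (0.09 to 0.10). For Thy1 they were Clec10a (0.12), Apln (0.16) and Acta1 (0.17). Prrx1 lay closest to Ube2h, Apbb2 and Klf7 (0.05 to 0.06) and Prrx2 to Vegfc, Slc44a2 and Fbxo10 (all 0.08). Pdgfra lay closest to Cacna1d (0.05) and Pdgfrb to Msh6 (0.03). Because 3 groups set most of the course, such closeness describes these libraries only.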

How the data were processed

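Cells were lysed in TRIzol and sequenced from NEBNext Ultra II libraries, per the labels' protocols. Per the submitters' processing notes, cutadapt, HISAT2 and HTSeq were used with genome build GRCm39 (tool versions, annotation and strand setting not given in the sources used). The authors deposited whole read counts per gene, not normalized, and FPKM values, which equal the count over gene length and library total (relative tolerance 0.001, genes with at least 50 reads). FPKM was used only to compare levels between genes. One empty line was left out.

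Counts of genes kept by filterByExpr (minimum count 10) were scaled by TMM and fitted in edgeR 4.0.16 (R 4.3.3) by quasi-likelihood over all 9 libraries, with 1 mean per group and Benjamini-Hochberg adjustment over 13013 genes. Every adjusted p in the text comes from that fit unless another tool is named. Standard errors are the log2 fold change over the root of F. DESeq2 1.42.0 was an alternative. The fit was tested on simulated data. The log2 ratios used a prior count of 0.5. A floor of 3 counts is 0.146 to 0.186 CPM, and intervals on counts cover counting error only.

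The members and the gene lists were chosen with earlier results of these data known. All members are named. Of each further list up to 4 tested genes with the smallest p in each of the first 2 comparisons may be named, of the lists of other cell types the 2 most abundant, and others are marked as chosen after their values were seen. Of the members only Eng overlaps another listed gene, Fpgs, by 61 bases. One gene of the list of ligands and partners is not reported here.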

Additional observations from a re-analysis of the deposited data

How the results depend on the processing

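The counts of members called, in each direction and in all 3 comparisons, were within 1.5 times under every alternative run: DESeq2 size factors, upper-quartile scaling, no filter on low counts, a filter at 1 CPM in 3 libraries, DESeq2, a fit of only the 2 groups compared, a replicate block and leaving out each library in turn. The ratios were also run with a prior count of 5, with no change of direction. With the exception of Cd200 and Eng, no member changed its call or direction in any of them. Cd200 in the mutant against day 3 controls was called only without mutant replicate 3 (−0.58, adjusted p = 0.0093, with a range of adjusted p over the alternatives of 0.0093 to 0.263). Eng, never called, changed sign in the mutant against day 0 controls with only the 2 groups compared in the fit (0.0055) and over leaving out libraries (−0.075 to 0.036), and in the mutant against day 3 controls over leaving out libraries (−0.0022 to 0.13). The log2 ratio of Prrx1 to Prrx2 in the mutant against day 3 controls, within the spread at 0.03, ran from −0.039 to 0.14 when libraries were left out.

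Over all genes, the count called in the mutant against day 3 controls was 2301, and 1479 to 2948 when libraries were left out, lowest without control day 3 replicate 2. The replicate numbers are not said to mark a shared culture. Over 10492 genes, the deviations of same-numbered libraries correlated at −0.17 to 0.11, and those of differently numbered libraries at −0.288 to 0.248. Because the first range lies within the second, these values cannot decide whether same-numbered libraries share a culture. With the replicate block 8390, 2050 and 8742 genes were called in the 3 comparisons in order, and 9, 6 and 9 members. Under the other 2 scalings the median log2 fold change of all genes lay between −0.0114 and 0.01. Among the 10 members Pi16 at day 0, with 14 reads in all, had the fewest reads.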

Other observations

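Some of the nearest tested genes on the chromosome, by the deposited GRCm39 coordinates, are given beside their member. Pdgfra lies 108 kb from Chic2 and 735 kb from the VEGF receptor gene Kdr, which had log2 fold changes on induction of 0.02 ± 0.08 and 0.54 ± 0.20, beside 2.97 for Pdgfra. Pdgfrb lies 15.5 kb from Csf1r, the macrophage growth factor receptor gene, and both fell on induction (−0.79 for Pdgfrb and −0.56 ± 0.05 for Csf1r, adjusted p = 6.66e-09), while in the mutant neither was called. Prrx2 lies 4.64 kb from Asb6 (−0.03 ± 0.09 on induction) and 8.22 kb from Ptges, the prostaglandin E synthase gene, which rose by 2.11 ± 0.08 on induction and was higher by 0.25 ± 0.07 in the mutant, where Prrx2 was lower. Pi16 lies 1.48 kb from Mtch1 and 3.61 kb from BC004004, which were at 0.05 ± 0.05 and 0.11 ± 0.06 in the mutant (adjusted p = 0.545 and 0.203), beside 2.19 for Pi16. Cd34 lies 122 kb from Plxna2, a plexin gene, which was higher on induction (0.84 ± 0.08) and lower in the mutant (−0.50 ± 0.08, adjusted p = 7.23e-05), where Cd34 was higher. The neighbours named were chosen after their values were seen.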
